A study of Homo sapiens with 8 samples.

Results

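Messenger RNA of 33 genes of cholesterol and fatty acid synthesis was followed in CHP212, a human neuroblastoma cell line, comparing cells labelled FAM193A knockout with unmodified cells, with and without the p53-activating compound Nutlin-3a. The 33 genes were chosen by name out of 25369 listed genes. They comprise 7 enzymes of the mevalonate pathway, 9 enzymes of the sterol branch, 6 genes of sterol sensing and transport, 8 enzymes of fatty acid synthesis and modification, and 3 genes that liver X receptors (LXR) are known to induce. All 33 passed the filter on low counts. The 4 groups were FAM193A knockout (KO) cells given Nutlin-3a at 10 uM, KO cells given the vehicle DMSO at 0.2%, unmodified (WT) cells given Nutlin-3a at 10 uM, and WT cells given DMSO at 0.2%. Each exposure lasted 12 h, all cells grew in medium with 10% fetal bovine serum, and each group held 2 independent biological replicates, which makes 8 libraries. The labels name 1 KO population and do not describe the edit, so what FAM193A loss did and what sets that population apart otherwise cannot be told apart. Nutlin-3a stabilises p53 by blocking its contact with MDM2, which marks p53 for degradation.

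Cells build cholesterol from acetyl-CoA through mevalonate, farnesyl diphosphate, squalene and lanosterol, and they build fatty acids from the same acetyl-CoA through malonyl-CoA. Most genes of both routes are known targets of the SREBP transcription factors (SREBF1 and SREBF2). SREBPs stay in the endoplasmic reticulum, bound to SCAP and held there by INSIG proteins, while sterols are plentiful, and travel to the Golgi to be cut and released when sterols run low. LXRs answer to oxysterols and induce genes of cholesterol export, and they are known to induce SREBF1 and fatty acid enzymes as well. Serum in the medium supplies cells with lipoprotein cholesterol.

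The upstream sequences of 5 of the genes are shown because their values carry the results that follow: HMGCS1 had the largest difference in response among mevalonate enzymes, DHCR7 and INSIG1 changed their order between the genotypes with treatment, SREBF2 encodes a factor released when sterols run low and had no called response, and ABCA1 had the largest rise. For INSIG1, the higher level in KO cells under Nutlin-3a lost its call without replicate 1 of KO Nutlin-3a. Each is the 160 bases before the gene start, on the strand of the gene, from RefSeq (GRCh38.p14), a later build than the GRCh37 (hg19) build named for the deposited counts. Capitals mark CCAAT boxes (CCAAT, or ATTGG on the other strand), E-boxes (CACGTG) and the sterol regulatory element TCACNCCAC. The stretches lie at chr5:43313413-43313572 (minus strand) for HMGCS1, chr11:71448394-71448553 (minus strand) for DHCR7, chr7:155297718-155297877 (plus strand) for INSIG1, chr22:41832945-41833104 (plus strand) for SREBF2 and chr9:104928156-104928315 (minus strand) for ABCA1.
HMGCS1: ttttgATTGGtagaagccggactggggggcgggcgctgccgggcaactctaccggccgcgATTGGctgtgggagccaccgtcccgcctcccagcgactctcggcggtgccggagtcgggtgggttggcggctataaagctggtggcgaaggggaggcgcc
DHCR7: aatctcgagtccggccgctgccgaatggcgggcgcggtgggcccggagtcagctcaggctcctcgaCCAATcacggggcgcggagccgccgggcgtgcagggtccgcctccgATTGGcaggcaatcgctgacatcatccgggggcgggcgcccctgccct
INSIG1: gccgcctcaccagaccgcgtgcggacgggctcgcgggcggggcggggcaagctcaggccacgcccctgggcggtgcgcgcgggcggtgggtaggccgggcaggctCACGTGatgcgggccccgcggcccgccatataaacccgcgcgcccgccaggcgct
SREBF2: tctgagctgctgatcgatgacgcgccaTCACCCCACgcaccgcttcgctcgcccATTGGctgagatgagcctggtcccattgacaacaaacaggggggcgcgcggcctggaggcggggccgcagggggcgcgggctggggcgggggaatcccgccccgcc
ABCA1: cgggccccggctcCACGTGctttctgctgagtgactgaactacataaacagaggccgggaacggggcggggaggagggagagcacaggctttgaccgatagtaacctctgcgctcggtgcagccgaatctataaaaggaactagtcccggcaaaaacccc

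RefSeq windows of 300 bases, 250 before to 50 after the gene start, were matched by symbol for 28 of the 33 genes, which leaves ACAT2, FDFT1, SQLE, FASN and ABCG1. Both strands were searched. A CCAAT box stood in 17 of the 28 windows (60.7%), against 35.7% of all 27305 RefSeq windows. MVK and NSDHL had 5 boxes each, FDPS, MVD and EBP had 3, HMGCS1, DHCR7, HSD17B7, STARD4, ACLY, SCD and MYLIP had 2, and LSS, TM7SF2, INSIG1, SREBF2 and ACSS2 had 1. The motif TCACNCCAC stood in 1 of 28 windows (3.57%, that of SREBF2, starting 133 bases before the gene start), against 1.15% of all windows. An E-box stood in 4 of 28 windows (14.3%, LSS, INSIG1, SCAP and ABCA1), against 7.43% of all. The LXR motif DR4, AGGTCA repeated after a gap of 4 bases, stood in 0 of 28 windows, against 0.0183% of all. These letter matches are descriptions of the windows and locate no bound factor.

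Levels can be compared between genes per length, in RPKM (reads scaled to gene length and library size, as deposited). In KO Nutlin-3a cells FASN and ACLY led, and in KO DMSO cells ACLY and FASN did so. In WT DMSO cells ACLY (215 ± 2.72 RPKM, SD, n = 2), which makes cytosolic acetyl-CoA, stood first, followed by FASN, the fatty acid synthase (201 ± 7.94 RPKM), and FDPS, the farnesyl diphosphate synthase (200.2 ± 3.49 RPKM). The RPKM of FASN and FDPS overlapped there, at 207 and 195 for FASN and 203 and 198 for FDPS. SCD (157 ± 1.89 RPKM) and FADS2 (155 ± 4.95 RPKM) came next and overlapped as well. At the low end of WT DMSO cells stood ABCG1 (0.595 and 0.406 RPKM) and ABCA1 (0.289 and 0.327 RPKM), below the other 31 genes in every group. STARD4, a carrier of cholesterol between membranes, stood at place 3 of 33 in WT Nutlin-3a cells, against place 8 in WT DMSO cells, while INSIG1 stood at places 29, 23, 30 and 21 in KO Nutlin-3a, KO DMSO, WT Nutlin-3a and WT DMSO cells.

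**Figure D1:**
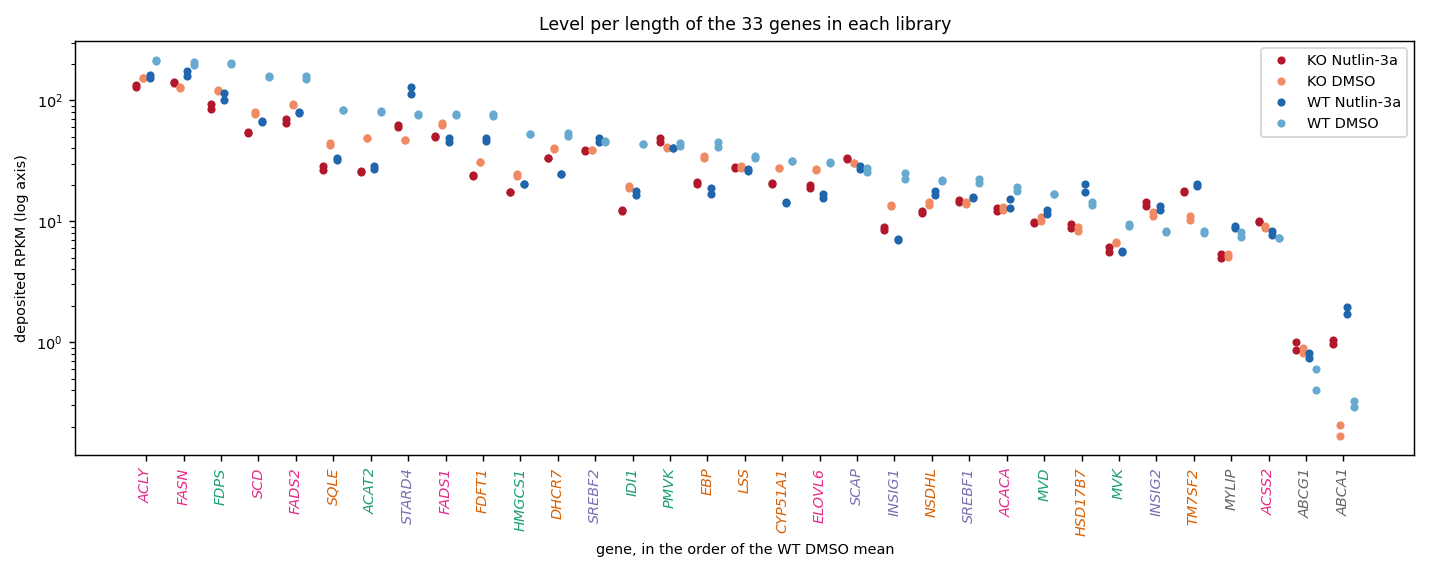
Deposited RPKM of the 33 genes in each of the 8 libraries (log axis), ordered by the mean in WT DMSO cells, with gene names coloured by role (green mevalonate, orange sterol branch, purple sterol sensing and transport, pink fatty acid, grey LXR targets). The WT DMSO points lie above the other groups for most enzymes, and ABCG1 and ABCA1 lie far below all others.

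The plot of RPKM by gene shows how the levels span the range from 215 RPKM for ACLY to 0.308 RPKM for ABCA1 in WT DMSO cells. Summed over the 7 mevalonate enzymes, RPKM was 207 ± 8.63 in KO Nutlin-3a, 270 ± 3.998 in KO DMSO, 232 ± 13.5 in WT Nutlin-3a and 446 ± 2.42 in WT DMSO cells (SD, n = 2 each). The summed RPKM of the 9 sterol branch enzymes was 192 ± 1.29, 237 ± 1.03, 219 ± 6.68 and 364 ± 9.28 in the same order of groups. The summed RPKM of the 8 fatty acid enzymes was 485 ± 10.6, 564 ± 6.81, 556 ± 23.2 and 861 ± 14.02. In each of these sums both WT DMSO libraries lay above the other 6 libraries, and both KO Nutlin-3a libraries lay below them.

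The libraries held 28390405 to 38010075 reads. FAM193A was still read in KO cells, at 42.0 and 38.1 CPM under Nutlin-3a and 34.8 and 32.2 CPM under DMSO, against 50.4 and 44.5 CPM in WT Nutlin-3a and 44.1 and 40.0 CPM in WT DMSO cells (CPM is counts scaled to a common library size, with TMM factors). FAM193A was lower in KO cells than in WT cells given Nutlin-3a (-0.24, SE 0.07, adjusted p = 0.00827) and DMSO (-0.33, SE 0.08, adjusted p = 0.000999), although the KO Nutlin-3a and WT DMSO libraries overlapped. CDKN1A, the p53 target that encodes p21, rose in KO cells (5.12, SE 0.06, log2 fold change) and in WT cells (5.39, SE 0.06). Of 10 neuroblastoma markers, 10 reached at least 10 reads in each KO group and 9 did in each WT group. Their summed CPM ran from 3657 to 3813 in KO Nutlin-3a, 4203 to 4251 in KO DMSO, 3054 to 3192 in WT Nutlin-3a and 4441 to 4477 in WT DMSO cells, mostly MYCN. CHGB and STMN2 stayed under 2 CPM everywhere, and DBH stayed under 1 CPM in WT cells. The hepatocyte list summed to at most 1.81 CPM and the adrenocortical list to at most 2.39 CPM in any library. The adipocyte list summed to 7.21 to 7.48 CPM in KO cells, 37.0 to 38.9 CPM in WT Nutlin-3a and 77.4 to 80.4 CPM in WT DMSO cells, mostly from LPL, with LEP at 0 and ADIPOQ at or near 0 throughout, and its part in the results was not tested. The macrophage list summed to 9.53 to 16.2 CPM and the epithelial list to 219 to 685 CPM, higher in WT than in KO cells. The fibroblast list summed to 3782 to 5103 CPM, mostly COL1A1 (3218 to 4927 CPM), with COL1A2 at 0 in both WT Nutlin-3a libraries. Its other members went apart between genotypes: LUM ran from 74.3 to 138 CPM in KO and 290 to 374 CPM in WT libraries, PDGFRB from 70.5 to 109 CPM in KO and 180 to 197 CPM in WT libraries, and DCN from 19.8 to 35.6 CPM in KO and 4.35 to 6.67 CPM in WT libraries. Their part in the results was not tested. Replicate 2 of WT DMSO, replicate 1 of WT Nutlin-3a and replicate 2 of KO Nutlin-3a held 11, 33 and 10 genes with at least 30 reads that had at most 5 reads in the other replicate, and results were also computed without these 3 libraries.

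Of the 33 genes, 20 were lower and 6 higher in KO than in WT cells under Nutlin-3a (edgeR's quasi-likelihood test, Benjamini-Hochberg adjusted p under 0.05 over 15879 genes), where 30.4% of all tested genes were called lower and 32.7% higher. Under DMSO, 28 were lower and 5 higher in KO than in WT cells, against 30.1% and 31.4% of all tested genes. The median log2 fold change of KO against WT was -0.27 under Nutlin-3a and -0.63 under DMSO, where the medians of all tested genes were 0.02 and 0.01. In bulk RNA, fewer cells of a kind and less RNA per cell cannot be told apart. Over all tested genes 5190 were higher and 4822 lower in KO cells under Nutlin-3a, a split that was 6209 and 3747 with limma on log2(RPKM + 0.1), where the median of all genes was 0.11.

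Nutlin-3a lowered 16 of the 33 genes in KO cells and raised 5, where 20.6% of all tested genes were called lower and 18.1% higher. In WT cells it lowered 22 and raised 7, against 29.2% and 29.4% of all tested genes. The median log2 fold change of the 33 genes was -0.21 in KO cells and -0.47 in WT cells, while the medians of all tested genes were -0.01 and 0.02. The KO and WT responses share no library: 16 genes fell in both, 4 rose in both (TM7SF2, INSIG2, STARD4 and ABCA1), and 0 were called in opposite directions. Of all tested genes, 17.1% fell in both, 14.8% rose in both, 0.309% rose in KO and fell in WT cells, and 0.51% fell in KO and rose in WT cells. The difference of the responses (KO minus WT) was called above 0 for 22 genes and below 0 for 4, against 14.2% and 13.4% of all tested genes. The comparisons of each genotype's response and of KO with WT share libraries, so their values are set side by side for each gene and were not correlated.

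**Figure D2:**
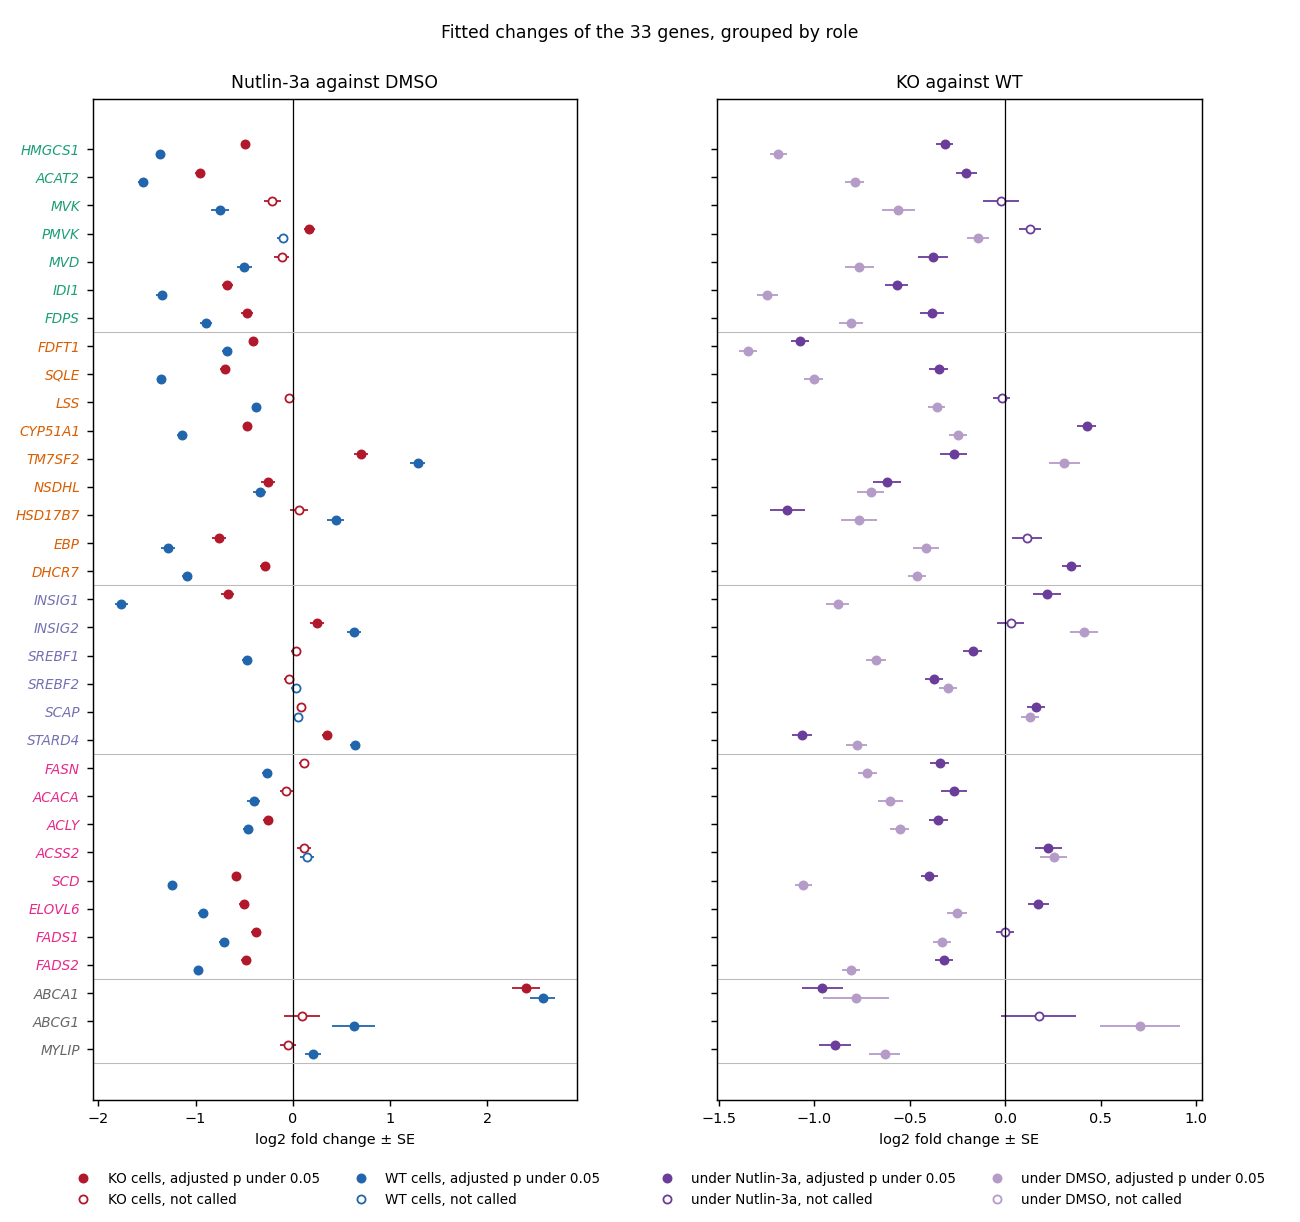
Fitted log2 fold changes with their SE for the 33 genes, grouped by role, for Nutlin-3a against DMSO in KO (red) and WT cells (blue), and, on the right, for KO against WT with Nutlin-3a (dark) and DMSO (light). Filled points passed an adjusted p of 0.05. In the left panel the WT points of most enzymes lie farther below 0 than the KO points, and in the right panel their DMSO points lie farther below 0 than their Nutlin-3a points.

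In the plot of fitted changes, most mevalonate, sterol branch and fatty acid enzymes have their large negative values in the WT response and in KO against WT under DMSO. TM7SF2, HSD17B7, INSIG2, STARD4 and the LXR targets were the genes called above 0 in the WT response.

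Among the mevalonate enzymes, 4 of 7 fell and 1 rose with Nutlin-3a in KO cells, and 6 of 7 fell in WT cells. Of all tested genes, 20.6% fell and 18.1% rose in KO cells, and 29.2% fell and 29.4% rose in WT cells. HMGCS1, which makes HMG-CoA at the start of the route, had 91.0 and 92.5 CPM in KO Nutlin-3a cells, 131 and 128 CPM in KO DMSO cells, 115 and 114 CPM in WT Nutlin-3a cells, and 293 and 295 CPM in WT DMSO cells. Both WT DMSO libraries stood well above all others, and the 4 groups did not overlap. HMGCS1 fell with Nutlin-3a in KO cells (log2 fold change -0.49, SE 0.04, adjusted p = 4.43e-08) and in WT cells (-1.37, SE 0.04, adjusted p = 6.44e-15). It was lower in KO cells than in WT cells given Nutlin-3a (-0.32, SE 0.04, adjusted p = 6.41e-06) and DMSO (-1.19, SE 0.04, adjusted p = 3.49e-14). The difference of its responses, 0.87 (SE 0.06), was the largest of the 7 enzymes.

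ACAT2, the cytosolic thiolase that makes acetoacetyl-CoA, had 37.9 and 39.3 CPM in KO Nutlin-3a cells, 75.2 and 74.0 CPM in KO DMSO cells, 45.7 and 43.1 CPM in WT Nutlin-3a cells, and 129 and 128 CPM in WT DMSO cells. The 4 groups did not overlap, with the KO Nutlin-3a libraries lowest and the WT DMSO libraries highest. Its log2 fold change with Nutlin-3a was -0.95, SE 0.05 in KO cells and -1.54, SE 0.05 in WT cells, the largest fall of an enzyme in either genotype. KO against WT differed by -0.20, SE 0.05 under Nutlin-3a and by -0.79, SE 0.05 under DMSO. In the GENCODE v29 annotation its exons overlap those of TCP1 and SOD2 on the opposite strand. SOD2 fell in both genotypes too (-0.63, SE 0.07 in KO and -1.07, SE 0.07 in WT cells). So did TCP1 (-0.22, SE 0.05 in KO and -0.58, SE 0.05 in WT cells). The part of either gene in the ACAT2 counts was not tested.

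IDI1, the isomerase that interconverts the 5-carbon units, had 24.9 and 25.8 CPM in KO Nutlin-3a cells, 40.8 and 39.9 CPM in KO DMSO cells, 39.1 and 35.9 CPM in WT Nutlin-3a cells, and 95.3 and 96.0 CPM in WT DMSO cells. It showed the same order as HMGCS1 and ACAT2, with no overlap between groups. IDI1 was lower in KO cells than in WT cells given Nutlin-3a (-0.57, SE 0.06, adjusted p = 2.40e-07) and DMSO (-1.25, SE 0.06, adjusted p = 7.87e-13), the largest difference under DMSO among mevalonate enzymes. FDPS, which joins those units into farnesyl diphosphate, had 133 and 148 CPM in KO Nutlin-3a cells, 196 and 193 CPM in KO DMSO cells, 196 and 169.6 CPM in WT Nutlin-3a cells, and 343 and 336 CPM in WT DMSO cells. Its KO DMSO and WT Nutlin-3a libraries overlapped, and the WT DMSO libraries stood far above both. FDPS fell with Nutlin-3a in KO cells (-0.47, SE 0.06, adjusted p = 1.97e-05) and in WT cells (-0.89, SE 0.06, adjusted p = 3.93e-09).

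MVK, the mevalonate kinase, had 12.2 and 11.2 CPM in KO Nutlin-3a cells, 13.7 and 13.4 CPM in KO DMSO cells, 12.1 and 11.7 CPM in WT Nutlin-3a cells, and 20.4 and 19.5 CPM in WT DMSO cells. Its WT DMSO libraries stood above the other 6, and its KO and WT libraries overlapped under Nutlin-3a. MVK fell in WT cells (-0.75, SE 0.09, adjusted p = 1.04e-06), and its change in KO cells was -0.21, SE 0.09, adjusted p = 0.0755. MMAB, whose exons overlap those of MVK on the opposite strand, fell too (-0.20, SE 0.07 in KO and -0.42, SE 0.07 in WT cells). MVD, the decarboxylase, was 16.9 ± 0.160 CPM in KO Nutlin-3a, 18.3 ± 0.964 in KO DMSO, 22.0 ± 1.43 in WT Nutlin-3a and 31.1 ± 0.178 in WT DMSO cells (SD, n = 2 each), and fell in WT cells (-0.50, SE 0.08, adjusted p = 1.73e-05). PMVK, the phosphomevalonate kinase, had 56.6 and 61.2 CPM in KO Nutlin-3a cells, 52.7 and 52.0 CPM in KO DMSO cells, 54.4 and 53.1 CPM in WT Nutlin-3a cells, and 55.9 and 59.9 CPM in WT DMSO cells. All 8 PMVK libraries lay between 52.0 and 61.2 CPM. Its rise in KO cells (0.17, SE 0.06, adjusted p = 0.0243) was lost without replicate 2 of KO Nutlin-3a (0.11, adjusted p = 0.266) or either KO DMSO library (adjusted p = 0.1 and 0.152), and its lower level in KO cells under DMSO (-0.14, SE 0.06, adjusted p = 0.0365) was lost without replicate 2 of WT DMSO (-0.09, adjusted p = 0.289) or either KO DMSO library (-0.15 and -0.13). Without replicate 1 of KO Nutlin-3a, PMVK was called higher in KO cells than in WT cells given Nutlin-3a (0.19, adjusted p = 0.0308), as it was with limma on log2(RPKM + 0.1) (0.22, adjusted p = 0.00333).

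In the sterol branch, 6 of 9 enzymes fell and 1 rose with Nutlin-3a in KO cells, and 7 of 9 fell and 2 rose in WT cells. The shares of all tested genes were 20.6% falling and 18.1% rising in KO cells, and 29.2% and 29.4% in WT cells. FDFT1, the squalene synthase, had 102 and 100.3 CPM in KO Nutlin-3a cells, 134 and 134 CPM in KO DMSO cells, 219 and 206 CPM in WT Nutlin-3a cells, and 346 and 336 CPM in WT DMSO cells. The genotypes were far apart in both treatments, with all 4 WT libraries above all 4 KO libraries. FDFT1 was lower in KO cells than in WT cells given Nutlin-3a (log2 fold change -1.07, SE 0.05, adjusted p = 4.76e-13) and DMSO (-1.35, SE 0.05, adjusted p = 1.45e-14). Its value under DMSO was the largest difference in that comparison among the 33 genes. With Nutlin-3a it fell in KO cells (-0.41, SE 0.05, adjusted p = 1.31e-06) and in WT cells (-0.68, SE 0.05, adjusted p = 2.47e-10). SQLE, the squalene epoxidase, had 75.5 and 82.7 CPM in KO Nutlin-3a cells, 126 and 129.9 CPM in KO DMSO cells, 103 and 98.7 CPM in WT Nutlin-3a cells, and 258 and 256 CPM in WT DMSO cells. Its groups did not overlap, with WT DMSO highest and KO Nutlin-3a lowest. SQLE fell in KO cells (-0.70, SE 0.05, adjusted p = 2.11e-09) and in WT cells (-1.35, SE 0.05, adjusted p = 4.41e-14). LSS, which closes squalene epoxide into lanosterol, had 127 and 128 CPM in KO Nutlin-3a cells, 128 and 134 CPM in KO DMSO cells, 127 and 132 CPM in WT Nutlin-3a cells, and 171 and 164 CPM in WT DMSO cells. The 2 WT DMSO libraries stood apart above the others, and the other 6 ran together from 127 to 134 CPM. LSS fell in WT cells (-0.38, SE 0.05, adjusted p = 1.25e-06), while its change in KO cells was -0.04, SE 0.05, adjusted p = 0.584.

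CYP51A1, the lanosterol demethylase, had 64.8 and 64.7 CPM in KO Nutlin-3a cells, 89.4 and 89.9 CPM in KO DMSO cells, 48.9 and 47.4 CPM in WT Nutlin-3a cells, and 106 and 107 CPM in WT DMSO cells. The KO libraries lay between the WT groups: below WT under DMSO and above WT under Nutlin-3a. CYP51A1 was higher in KO cells than in WT cells given Nutlin-3a (log2 fold change 0.43, SE 0.05, adjusted p = 5.83e-07) and lower under DMSO (-0.25, SE 0.05, adjusted p = 0.000171). It fell with Nutlin-3a in KO cells (-0.47, SE 0.05, adjusted p = 2.32e-07) and in WT cells (-1.14, SE 0.05, adjusted p = 4.36e-13). DHCR7, the reductase that makes cholesterol in the last step of one route, had 84.7 and 86.3 CPM in KO Nutlin-3a cells, 105 and 104 CPM in KO DMSO cells, 68.0 and 66.6 CPM in WT Nutlin-3a cells, and 148 and 139 CPM in WT DMSO cells. DHCR7 showed the same order, with the WT Nutlin-3a libraries lowest and the WT DMSO libraries highest. It was higher in KO cells than in WT cells given Nutlin-3a (0.35, SE 0.05, adjusted p = 7.21e-06) and lower under DMSO (-0.46, SE 0.05, adjusted p = 1.11e-07). The responses of DHCR7 differed by 0.81, SE 0.07, the largest difference in the sterol branch.

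EBP, the sterol isomerase, had 22.4 and 23.4 CPM in KO Nutlin-3a cells, 39.4 and 38.03 CPM in KO DMSO cells, 22.5 and 19.8 CPM in WT Nutlin-3a cells, and 53.6 and 49.4 CPM in WT DMSO cells. The genotypes overlapped under Nutlin-3a and were apart under DMSO. EBP fell in KO cells (-0.76, SE 0.07, adjusted p = 9.13e-08) and in WT cells (-1.28, SE 0.07, adjusted p = 2.57e-11), and KO against WT was 0.11, SE 0.08 under Nutlin-3a, a value that was called without replicate 1 of WT Nutlin-3a (0.205, adjusted p = 0.0417) and with limma on log2(RPKM + 0.1) (0.21, adjusted p = 0.0183). NSDHL, a sterol dehydrogenase, had 18.4 and 19.1 CPM in KO Nutlin-3a cells, 21.7 and 23.0 CPM in KO DMSO cells, 29.9 and 27.6 CPM in WT Nutlin-3a cells, and 36.9 and 36.0 CPM in WT DMSO cells. Its KO libraries lay below its WT libraries in both treatments. NSDHL fell in KO cells (-0.26, SE 0.07, adjusted p = 0.00887) and in WT cells (-0.34, SE 0.07, adjusted p = 0.000363), with the KO call absent without replicate 2 of KO DMSO (adjusted p = 0.102) or replicate 1 of KO Nutlin-3a (adjusted p = 0.0771).

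TM7SF2 and HSD17B7 went the other way. TM7SF2, a sterol reductase, had 27.4 and 27.1 CPM in KO Nutlin-3a cells, 16.1 and 17.3 CPM in KO DMSO cells, 33.5 and 32.2 CPM in WT Nutlin-3a cells, and 13.2 and 13.8 CPM in WT DMSO cells. Its Nutlin-3a libraries stood above its DMSO libraries in both genotypes, and the genotypes changed order with treatment. TM7SF2 rose in KO cells (log2 fold change 0.70, SE 0.07, adjusted p = 3.64e-07) and in WT cells (1.28, SE 0.08, adjusted p = 6.15e-11). It was lower in KO cells than in WT cells given Nutlin-3a (-0.27, SE 0.07, adjusted p = 0.0029) and higher under DMSO (0.31, SE 0.08, adjusted p = 0.00279). Its exons overlap those of VPS51 on the same strand in GENCODE v29, and VPS51 changed by 0.07, SE 0.05 in KO and 0.17, SE 0.05 in WT cells. HSD17B7, a ketoreductase, had 13.8 and 12.9 CPM in KO Nutlin-3a cells, 13.3 and 12.3 CPM in KO DMSO cells, 31.8 and 27.1 CPM in WT Nutlin-3a cells, and 22.3 and 21.2 CPM in WT DMSO cells. Its KO libraries overlapped between treatments, and all lay below the WT libraries. HSD17B7 rose in WT cells (0.44, SE 0.09, adjusted p = 0.000298), and it was lower in KO cells than in WT cells given Nutlin-3a (-1.14, SE 0.09, adjusted p = 3.03e-09) and DMSO (-0.77, SE 0.09, adjusted p = 1.02e-06). Its near-identical pseudogene copy HSD17B7P2 had 138 and 110 reads in KO Nutlin-3a, 105 and 95 in KO DMSO, 316 and 259 in WT Nutlin-3a and 125 and 124 in WT DMSO cells, so the split of reads between them is uncertain.

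Among the genes of sterol sensing and transport, 1 of 6 fell and 2 rose with Nutlin-3a in KO cells, and 2 fell and 2 rose in WT cells. The WT counts lie near the shares of all tested genes, of which 29.2% fell and 29.4% rose. In KO cells 20.6% of all tested genes fell and 18.1% rose. INSIG1 had the largest fall of the 33 genes in WT cells. INSIG1, which holds SCAP and SREBP in the endoplasmic reticulum and is itself a known SREBP target, had 26.6 and 25.1 CPM in KO Nutlin-3a cells, 40.6 and 41.6 CPM in KO DMSO cells, 22.2 and 22.2 CPM in WT Nutlin-3a cells, and 79.6 and 71.3 CPM in WT DMSO cells. The WT DMSO libraries were the highest, the WT Nutlin-3a libraries the lowest, and the KO libraries lay between. INSIG1 fell with Nutlin-3a in KO cells (log2 fold change -0.67, SE 0.07, adjusted p = 1.75e-07) and in WT cells (-1.76, SE 0.07, adjusted p = 6.80e-14). The difference of these responses, 1.10, SE 0.09 (adjusted p = 1.38e-07), was the largest of the 33 genes. INSIG1 was lower in KO cells than in WT cells given DMSO (-0.88, SE 0.06, adjusted p = 6.07e-10). Its higher level in KO cells under Nutlin-3a (0.22, SE 0.07, adjusted p = 0.0127) was lost without replicate 1 of KO Nutlin-3a (0.18, adjusted p = 0.106) and with the DESeq2 Wald test (0.20, adjusted p = 0.0549).

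INSIG2, its relative, had 35.9 and 33.5 CPM in KO Nutlin-3a cells, 30.4 and 28.2 CPM in KO DMSO cells, 35.5 and 32.5 CPM in WT Nutlin-3a cells, and 21.7 and 22.3 CPM in WT DMSO cells. The WT DMSO libraries were the lowest here, opposite to INSIG1, and the genotypes overlapped under Nutlin-3a. INSIG2 rose in KO cells (0.25, SE 0.07, adjusted p = 0.00819) and in WT cells (0.63, SE 0.07, adjusted p = 6.67e-07), with the KO call absent without replicate 2 of KO DMSO (0.19, adjusted p = 0.131) or replicate 1 of KO Nutlin-3a (0.20, adjusted p = 0.105). STARD4 had 129.6 and 138 CPM in KO Nutlin-3a cells, 105 and 105 CPM in KO DMSO cells, 264 and 295 CPM in WT Nutlin-3a cells, and 177 and 182 CPM in WT DMSO cells. All WT libraries stood above all KO libraries, and in each genotype Nutlin-3a stood above DMSO. STARD4 rose in KO cells (0.35, SE 0.05, adjusted p = 3.90e-05) and in WT cells (0.64, SE 0.05, adjusted p = 5.61e-09), and it was lower in KO cells than in WT cells given Nutlin-3a (-1.06, SE 0.05, adjusted p = 3.57e-12) and DMSO (-0.78, SE 0.05, adjusted p = 5e-10). The antisense gene STARD4-AS1, which overlaps it, changed by -0.00, SE 0.11 under Nutlin-3a and by 0.60, SE 0.11 under DMSO between KO and WT cells.

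SREBF2, the factor known for sterol genes, had 211 and 218 CPM in KO Nutlin-3a cells, 221 and 221 CPM in KO DMSO cells, 267 and 288 CPM in WT Nutlin-3a cells, and 275 and 268 CPM in WT DMSO cells. Its libraries overlapped between treatments in WT cells, and all KO libraries lay below all WT libraries. The change of SREBF2 with Nutlin-3a was -0.04, SE 0.05, adjusted p = 0.53 in KO and 0.03, SE 0.05, adjusted p = 0.59 in WT cells, and it was lower in KO cells than in WT cells given Nutlin-3a (-0.37, SE 0.05, adjusted p = 1.85e-06) and DMSO (-0.30, SE 0.05, adjusted p = 2.66e-05). Without replicate 1 of WT Nutlin-3a its WT response was called (0.11, adjusted p = 0.0307), and without replicate 2 it was -0.03 (adjusted p = 0.627). SREBF1, known for fatty acid genes, had 72.1 and 70.0 CPM in KO Nutlin-3a cells, 68.2 and 71.0 CPM in KO DMSO cells, 81.2 and 78.9 CPM in WT Nutlin-3a cells, and 107 and 115 CPM in WT DMSO cells. The WT DMSO libraries stood above the rest, and the KO libraries overlapped between treatments. SREBF1 fell in WT cells (-0.47, SE 0.05, adjusted p = 2.36e-07), while its change in KO cells was 0.03, SE 0.05. RAI1, whose exons overlap those of SREBF1 on the opposite strand, fell in both genotypes (-0.23, SE 0.06 in KO and -0.39, SE 0.06 in WT cells). SREBF1 was lower in KO cells than in WT cells given Nutlin-3a (-0.17, SE 0.05, adjusted p = 0.00832), which lost its call without replicate 2 of KO Nutlin-3a (-0.15, adjusted p = 0.0656) and with limma on log2(RPKM + 0.1) (-0.08, adjusted p = 0.209), and it was lower under DMSO too (-0.68, SE 0.05, adjusted p = 1.69e-09). SCAP, the SREBP escort, had 134 and 136 CPM in KO Nutlin-3a cells, 128 and 126 CPM in KO DMSO cells, 118 and 124 CPM in WT Nutlin-3a cells, and 119.5 and 113 CPM in WT DMSO cells. All KO libraries stood above all WT libraries by a small margin. SCAP responded to Nutlin-3a by 0.09, SE 0.05 in KO and 0.05, SE 0.05 in WT cells, neither of them called, although without replicate 1 of WT Nutlin-3a the KO change was called (0.11, adjusted p = 0.022). SCAP was higher in KO cells than in WT cells given Nutlin-3a (0.16, SE 0.05, adjusted p = 0.00597), which lost its call without replicate 2 of KO Nutlin-3a (0.15, adjusted p = 0.0506). It was higher under DMSO too (0.13, SE 0.05, adjusted p = 0.0246), a call lost without replicate 2 of WT DMSO (0.09, adjusted p = 0.239) or either KO DMSO library (0.12 and 0.14), and with DESeq2 size factors (0.10, adjusted p = 0.0699).

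Of the 8 fatty acid enzymes, 5 fell with Nutlin-3a in KO cells and 7 fell in WT cells, and 0 rose in either. Over all tested genes, 20.6% fell and 18.1% rose in KO cells, and 29.2% fell and 29.4% rose in WT cells. SCD, the desaturase that makes oleic acid, had 281 and 289 CPM in KO Nutlin-3a cells, 418 and 433 CPM in KO DMSO cells, 373 and 376 CPM in WT Nutlin-3a cells, and 890.4 and 879.5 CPM in WT DMSO cells. The WT DMSO libraries stood far above all others, and no groups overlapped. SCD fell in KO cells (log2 fold change -0.58, SE 0.05, adjusted p = 6.30e-09) and in WT cells (-1.24, SE 0.05, adjusted p = 3.79e-14), the largest falls of the fatty acid enzymes. It was lower in KO cells than in WT cells given Nutlin-3a (-0.40, SE 0.05, adjusted p = 4.37e-07) and DMSO (-1.06, SE 0.05, adjusted p = 3.74e-13). FASN, which had the most reads of the 33 genes, had 1138 and 1154 CPM in KO Nutlin-3a cells, 1054 and 1067 CPM in KO DMSO cells, 1392 and 1514 CPM in WT Nutlin-3a cells, and 1794 and 1704 CPM in WT DMSO cells. All WT libraries stood above all KO libraries, and Nutlin-3a stood below DMSO in WT cells and above it in KO cells. FASN fell in WT cells (-0.27, SE 0.05, adjusted p = 0.000152), and its change in KO cells was 0.11, SE 0.05, adjusted p = 0.0895. That KO change of FASN was called as a rise without either WT Nutlin-3a library (0.13 and 0.11), with upper-quartile factors (0.14) and in the fit of 4 libraries (0.13).

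ACLY had 536 and 563 CPM in KO Nutlin-3a cells, 655 and 661 CPM in KO DMSO cells, 680.2 and 719 CPM in WT Nutlin-3a cells, and 954 and 976 CPM in WT DMSO cells, with no overlap between groups and the WT DMSO libraries highest. ACLY fell in KO cells (-0.26, SE 0.05, adjusted p = 0.000246) and in WT cells (-0.46, SE 0.05, adjusted p = 1.11e-07). ACACA, the carboxylase that makes malonyl-CoA, had 132 and 142 CPM in KO Nutlin-3a cells, 138 and 148 CPM in KO DMSO cells, 152 and 177 CPM in WT Nutlin-3a cells, and 224 and 209.9 CPM in WT DMSO cells. The KO groups overlapped each other, and WT DMSO stood highest. ACACA fell in WT cells (-0.40, SE 0.07, adjusted p = 0.000129), and its change in KO cells was -0.07, SE 0.07. ACACA was lower in KO cells than in WT cells given DMSO (-0.60, SE 0.07, adjusted p = 2.37e-06) and under Nutlin-3a (-0.27, SE 0.07, adjusted p = 0.00322), where the call was lost without replicate 1 of KO Nutlin-3a (-0.21, adjusted p = 0.0534) and with limma on log2(RPKM + 0.1) (-0.17, adjusted p = 0.0901).

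ELOVL6, which lengthens saturated chains, had 61.1 and 65.3 CPM in KO Nutlin-3a cells, 88.8 and 89.8 CPM in KO DMSO cells, 54.2 and 57.8 CPM in WT Nutlin-3a cells, and 107 and 105 CPM in WT DMSO cells. As for CYP51A1, DHCR7 and INSIG1, the KO libraries lay between the WT groups. ELOVL6 was lower in KO cells than in WT cells given DMSO (-0.25, SE 0.05, adjusted p = 0.000306), and its higher level in KO cells under Nutlin-3a (0.17, SE 0.05, adjusted p = 0.00869) was lost without replicate 1 of WT Nutlin-3a (0.12, adjusted p = 0.0637) or replicate 2 of KO Nutlin-3a (0.12, adjusted p = 0.122), and was 0.07 (adjusted p = 0.348) without the 3 libraries with stray reads. FADS1 and FADS2 are neighbouring desaturases of polyunsaturated fatty acids on chromosome 11, and their exons overlap on opposite strands in GENCODE v29. FADS1 had 210.0 and 217 CPM in KO Nutlin-3a cells, 274 and 281 CPM in KO DMSO cells, 206 and 221 CPM in WT Nutlin-3a cells, and 349.8 and 348 CPM in WT DMSO cells. The genotypes overlapped under Nutlin-3a and were apart under DMSO, and KO against WT was 0.00, SE 0.05 under Nutlin-3a and -0.33, SE 0.05 under DMSO. FADS2 had 242 and 259 CPM in KO Nutlin-3a cells, 346 and 354 CPM in KO DMSO cells, 316 and 309 CPM in WT Nutlin-3a cells, and 625 and 601 CPM in WT DMSO cells. All 4 FADS2 groups were apart, with KO below WT in both treatments. FADS2 fell in KO cells (-0.48, SE 0.05, adjusted p = 1.76e-07) and in WT cells (-0.97, SE 0.05, adjusted p = 2.98e-12). FEN1, a replication nuclease gene that overlaps FADS2 on the same strand, fell as well (-1.17, SE 0.05 in KO and -2.19, SE 0.05 in WT cells), and its part in the FADS2 counts was not tested.

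ACSS2, which makes acetyl-CoA from acetate, had 30.3 and 31.0 CPM in KO Nutlin-3a cells, 27.7 and 28.9 CPM in KO DMSO cells, 27.3 and 25.0 CPM in WT Nutlin-3a cells, and 23.6 and 23.8 CPM in WT DMSO cells. It was highest in KO Nutlin-3a and lowest in WT DMSO libraries, unlike the other fatty acid enzymes, and no groups overlapped. Its change with Nutlin-3a was 0.11, SE 0.07, adjusted p = 0.2 in KO and 0.14, SE 0.07, adjusted p = 0.105 in WT cells, the WT value being called without replicate 2 of WT Nutlin-3a (0.20, adjusted p = 0.0395). ACSS2 was higher in KO cells than in WT cells given Nutlin-3a (0.23, SE 0.07, adjusted p = 0.00861) and DMSO (0.25, SE 0.07, adjusted p = 0.00448). The first of these calls was lost without replicate 2 of WT Nutlin-3a (0.16, adjusted p = 0.0768) or replicate 2 of KO Nutlin-3a (0.21, adjusted p = 0.0523), and the call under DMSO without replicate 2 of KO DMSO (0.22, adjusted p = 0.0527).

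Among the LXR targets, ABCA1 had the largest change of the 33 genes. ABCA1, which exports cholesterol to lipid-poor apolipoproteins, had 10.6 and 9.74 CPM in KO Nutlin-3a cells, 1.73 and 2.13 CPM in KO DMSO cells, 18.5 and 20.99 CPM in WT Nutlin-3a cells, and 3.12 and 3.55 CPM in WT DMSO cells. The Nutlin-3a libraries stood far above the DMSO libraries in both genotypes, and the KO libraries lay below the WT libraries in each treatment. ABCA1 rose 5.25-fold in KO cells (log2 fold change 2.39, SE 0.14, adjusted p = 1.51e-10) and 5.92-fold in WT cells (2.57, SE 0.13, adjusted p = 4.72e-12). The difference of these log2 responses was -0.18, SE 0.21, adjusted p = 0.58. ABCA1 was lower in KO cells than in WT cells given Nutlin-3a (-0.96, SE 0.11, adjusted p = 4.15e-07) and DMSO (-0.78, SE 0.17, adjusted p = 0.000788). With limma on log2(RPKM + 1) the DMSO value was -0.14 (adjusted p = 0.0938) and the difference of the responses was called (-0.36, adjusted p = 0.0223).

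ABCG1, which exports cholesterol to HDL, had 3.48 and 3.005 CPM in KO Nutlin-3a cells, 3.19 and 2.905 CPM in KO DMSO cells, 2.74 and 3.02 CPM in WT Nutlin-3a cells, and 2.202 and 1.51 CPM in WT DMSO cells. Its levels were low, and only the WT DMSO libraries stood apart, below the rest. Its rise in WT cells (0.62, SE 0.22, adjusted p = 0.0194) was lost without replicate 2 of WT DMSO (0.38, adjusted p = 0.209) or replicate 2 of WT Nutlin-3a (0.55, adjusted p = 0.069), and its higher level in KO cells under DMSO (0.71, SE 0.21, adjusted p = 0.00688) without replicate 2 of WT DMSO (0.47, adjusted p = 0.111). MYLIP, a ubiquitin ligase, had 15.8 and 14.7 CPM in KO Nutlin-3a cells, 15.3 and 16.3 CPM in KO DMSO cells, 27.9 and 28.6 CPM in WT Nutlin-3a cells, and 23.2 and 25.8 CPM in WT DMSO cells. All WT libraries stood above all KO libraries, and the KO libraries overlapped between treatments. MYLIP was lower in KO cells than in WT cells given Nutlin-3a (-0.89, SE 0.08, adjusted p = 2.52e-08) and DMSO (-0.63, SE 0.08, adjusted p = 2.59e-06). Its rise in WT cells (0.21, SE 0.08, adjusted p = 0.0345) was lost without replicate 1 of WT DMSO (0.15, adjusted p = 0.213) or replicate 2 of WT Nutlin-3a (0.19, adjusted p = 0.0866) and with the DESeq2 Wald test (0.21, adjusted p = 0.0829).

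**Figure D3:**
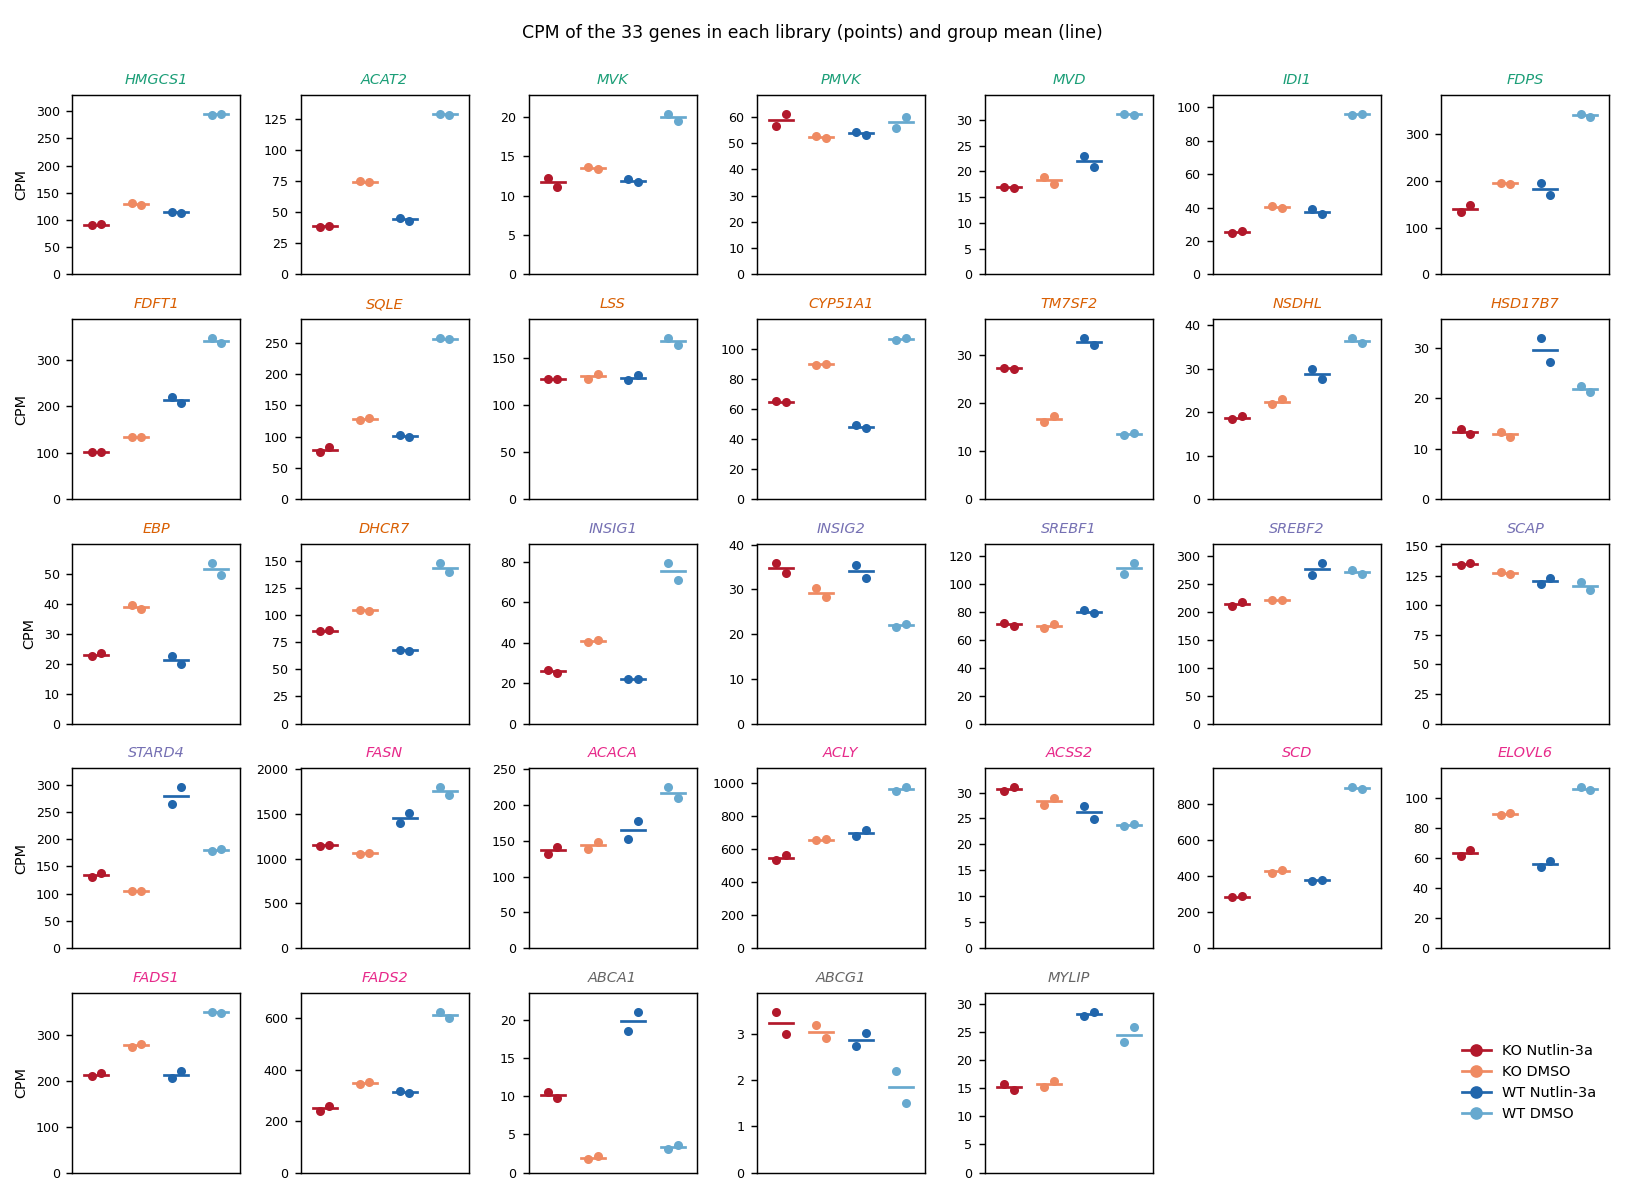
CPM of each of the 33 genes in the 8 libraries (points, each axis from 0) with the group mean (line), in the order KO Nutlin-3a, KO DMSO, WT Nutlin-3a, WT DMSO, and names coloured by role (green mevalonate, orange sterol branch, purple sterol sensing and transport, pink fatty acid, grey LXR targets). Most enzymes are highest in WT DMSO libraries, while TM7SF2, HSD17B7, STARD4 and ABCA1 are highest in WT Nutlin-3a libraries.

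The panels of CPM by library set the patterns side by side. In the first pattern, HMGCS1, ACAT2, IDI1, SQLE, SCD and FADS2 were highest in WT DMSO and lowest in KO Nutlin-3a cells, with WT Nutlin-3a below KO DMSO cells. In the second pattern, CYP51A1, DHCR7, INSIG1 and ELOVL6 were highest in WT DMSO and lowest in WT Nutlin-3a cells. Every WT library stood above every KO library for MVD, FDFT1, NSDHL, HSD17B7, SREBF1, SREBF2, STARD4, FASN, ACACA, ACLY and MYLIP. The reverse held for SCAP and ACSS2, with every KO library above every WT library. How many of all tested genes part in these ways was not computed. By calls, 20.9% of all tested genes were lower and 22.6% higher in KO cells under both treatments.

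The difference of the responses asks whether the change with Nutlin-3a depended on genotype. Of the 22 genes that fell in WT cells, 21 had a difference called above 0, that is, a smaller fall in KO cells or no call there, and NSDHL (0.08, SE 0.10, adjusted p = 0.59) was the exception. Of the 7 genes that rose in WT cells, 4 had a difference called below 0 (TM7SF2, INSIG2, STARD4 and HSD17B7), and ABCA1, ABCG1 and MYLIP had none called. Both sets were picked by the WT response, which the difference subtracts. That choice by itself favours a difference opposite in sign to the WT response. The same shares over all genes called in WT cells were not computed. After INSIG1, the largest differences were those of HMGCS1 (0.87, SE 0.06, adjusted p = 1.36e-08), DHCR7 (0.81, SE 0.07, adjusted p = 1.10e-07), IDI1 (0.68, SE 0.08, adjusted p = 8.17e-06), CYP51A1 (0.67, SE 0.07, adjusted p = 9.35e-07) and SCD (0.66, SE 0.06, adjusted p = 4.88e-07). Some of these calls rested on single libraries. That of HSD17B7 (-0.38, SE 0.13, adjusted p = 0.0397) was lost without any 1 library other than replicate 2 of WT Nutlin-3a, with values from -0.43 to -0.26, and was -0.18 without the 3 libraries with stray reads. That of ACLY (0.20, SE 0.07, adjusted p = 0.0306) was lost without any 1 of the DMSO or KO Nutlin-3a libraries other than replicate 1 of KO Nutlin-3a (0.16 to 0.22), and was 0.10 without the 3 libraries with stray reads. That of PMVK was lost without replicate 2 of WT DMSO, either KO DMSO library or replicate 2 of KO Nutlin-3a (0.21 to 0.28), and that of ACACA without replicate 1 of WT DMSO, replicate 1 of KO DMSO or replicate 2 of KO Nutlin-3a (0.28, 0.28 and 0.275). MVD lost its call without replicate 1 of WT DMSO (0.37) or replicate 2 of KO DMSO (0.33), STARD4 without replicate 1 of WT DMSO (-0.27) or replicate 1 of KO Nutlin-3a (-0.24), and INSIG2 without replicate 1 of KO DMSO (-0.33). The change was larger in size in WT than in KO cells for 30 of the 33 genes, and 28 of 33 had the same sign. Over all tested genes, Nutlin-3a raised 4673 and lowered 4634 in WT cells, against 2868 and 3273 in KO cells. Fewer calls in KO cells were therefore not particular to the 33 genes. The counts of size and sign, and the correlation that follows, were not computed over all tested genes. Across the 33 genes, the KO and WT log2 responses had Pearson's r = 0.931 and Spearman's rho = 0.94, a description over genes that share the 8 libraries' depth and composition and are not independent.

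**Figure D4:**
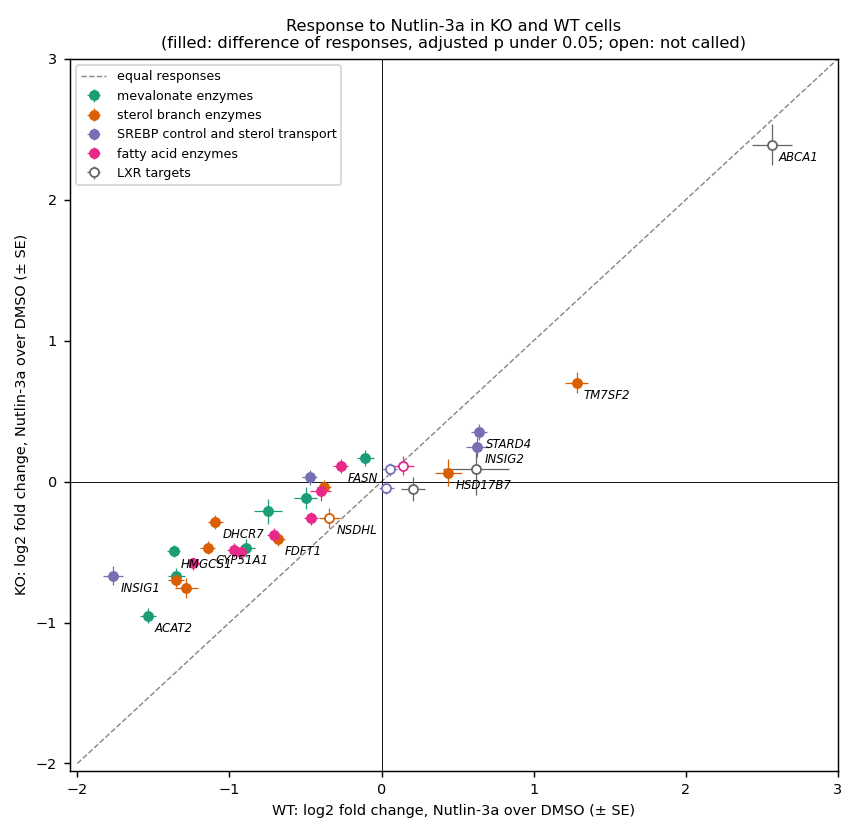
Log2 fold change with Nutlin-3a in KO (vertical axis) against WT cells (horizontal axis) for the 33 genes, with SE bars and a dashed line of equal responses. Filled points had a difference of responses with an adjusted p under 0.05. The genes that fell in WT cells lie above the dashed line, TM7SF2 and STARD4 lie below it, and ABCA1, with no call for the difference, lies near it.

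In the plot of the KO against the WT response, every gene that fell in WT cells lies above the line of equal responses. Picking genes by their WT response favours that side. The p53 targets used as a check also differed between genotypes under Nutlin-3a: KO against WT was -0.85, SE 0.05 for CDKN1A and -1.34, SE 0.05 for MDM2. These values hold any difference under DMSO as well as that of the responses. Under DMSO the CDKN1A mean was 48.35 CPM in KO and 72.4 CPM in WT cells. MDM2 means were 102.5 CPM in KO and 110.7 CPM in WT cells under DMSO, and 1065 and 2697 CPM under Nutlin-3a. The part of these targets in the differences of the 33 genes was not tested.

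Between KO and WT cells, 19 of the 33 genes were lower in KO cells under both treatments, and SCAP and ACSS2 were higher under both, against 20.9% and 22.6% of all tested genes. CYP51A1, DHCR7, INSIG1 and ELOVL6 were higher in KO cells under Nutlin-3a and lower under DMSO, as were 2.02% of all tested genes, and TM7SF2 did the opposite, as did 1.64%. Under Nutlin-3a the calls of INSIG1 and ELOVL6 were each lost when some single library was left out. MVK, PMVK, LSS, EBP and FADS1 were lower in KO cells under DMSO with no call under Nutlin-3a, where their log2 fold changes ran from -0.02 to 0.13. Across the 33 genes the log2 fold changes of KO against WT under Nutlin-3a and under DMSO, which share no library, had Pearson's r = 0.572 and Spearman's rho = 0.631. The same correlation over all tested genes was not computed.

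Genes of the same pathways outside the 33 were counted by lists. Of all tested genes, 20.6% fell and 18.1% rose with Nutlin-3a in KO cells, and 29.2% fell and 29.4% rose in WT cells. Of 9 other sterol synthesis genes, 7 fell with Nutlin-3a in KO cells and 8 fell in WT cells, and 0 rose in either. TMEM97, a sterol-regulated membrane protein, was higher in KO cells than in WT cells given Nutlin-3a (0.71, SE 0.06, adjusted p = 4.91e-09). The difference of the responses was called above 0 for 6 of these 9 genes, against 14.2% of all tested genes, with 0.90, SE 0.08, adjusted p = 1.88e-07 for TMEM97.

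Of 15 tested genes of sterol uptake and trafficking, 4 fell and 2 rose with Nutlin-3a in KO cells, and 5 fell and 2 rose in WT cells, with the shares that fell near those of all tested genes (20.6% and 29.2%). SOAT1, which stores cholesterol as esters, fell by less in KO (-0.26, SE 0.06) than in WT cells (-0.68, SE 0.06), a difference of 0.42, SE 0.08, adjusted p = 0.000729. Of 11 other genes of SREBP processing, 4 fell and 1 rose in KO cells, and 5 fell and 1 rose in WT cells, beside the same 20.6% and 29.2% of all tested genes that fell. ERLIN1, which takes part in SREBP retention, fell in KO cells (-0.46, SE 0.05) and in WT cells (-1.09, SE 0.06).

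Of 8 tested genes of the other LXR list, 4 rose with Nutlin-3a in KO cells and 4 rose in WT cells, with 0 and 1 falling, where 18.1% and 29.4% of all tested genes rose. PLTP, the phospholipid transfer protein, was 313 ± 16.3 CPM in KO Nutlin-3a, 44.7 ± 0.528 in KO DMSO, 576 ± 34.0 in WT Nutlin-3a and 37.6 ± 1.21 in WT DMSO cells (SD, n = 2 each). Its rise was 2.81, SE 0.06 in KO and 3.94, SE 0.06 in WT cells, and the difference was called (-1.13, SE 0.08, adjusted p = 1.29e-08). ABCC3, a transporter of organic anions, rose in KO (0.41, SE 0.06) and in WT cells (0.50, SE 0.06).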

How the data were processed

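Poly(A) RNA of 8 libraries was sequenced by strand-specific RNA-seq, per the labels' protocols. The submitters' processing notes list HTSeq 0.8.0, TopHat2 2.1.1 with Bowtie2 2.2.9.0, Picard 2.9.4, SAMtools 1.5, FastQC 0.11.5 and bcl2fastq, and the build GRCh37 (hg19). Which annotation and strand option HTSeq was run with is not stated there, and reads of overlapping genes may not be separated. The authors deposited raw read counts per gene and RPKM values. The RPKM and counts gave a whole-number gene length for 21186 of 21186 genes with reads (tolerance 0.001 bases).

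Of 25369 genes, 15879 passed edgeR's low-count filter, with library totals of 28390405 to 38010075 reads. Counts were tested with edgeR 4.0.16 (R 4.3.3; TMM, robust quasi-likelihood F test, 4 group means over 8 libraries, 4 residual degrees of freedom) for 5 comparisons, with Benjamini-Hochberg adjustment over all tested genes and a threshold of 0.05. Adjusted p-values in the text come from edgeR unless another tool is named. Replicates are labelled independent biological replicates, and all 8 libraries were counted separately, since pairs differed by more than sampling noise. With 2 replicates a group, an SD rests on 2 values. RPKM were used for levels between genes and in limma 3.58.1 on log2(RPKM + 0.1) and log2(RPKM + 1), where a fold change of a low gene is understated. DESeq2 1.42.0, other size factors, no low-count filter, fits of 4 libraries, a threshold of 0.01, a replicate block and leaving out each library were alternatives, and leaving out the 3 libraries with stray reads was added after seeing the data.

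All 33 genes are named. From each other list, up to 3 called genes with the smallest p in a comparison are named, and FAM193A, CDKN1A and MDM2 check the labels. Some genes that this rule names are not reported here. The genes and lists were chosen with earlier results of these data known. Scripts were tested on simulated data. Exon overlaps come from GENCODE v29 (GRCh38) and promoters from RefSeq (GRCh38.p14), used by gene name only.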

Additional observations from a re-analysis of the deposited data

Results flagged for a closer look

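For 26 of the 33 genes the test of the difference between the KO and WT responses to Nutlin-3a was called (edgeR's quasi-likelihood test, adjusted p under 0.05), given here as KO minus WT on the log2 scale. Of all tested genes, 14.2% were called above 0 and 13.4% below 0. The calls of HSD17B7, ACLY, PMVK, ACACA, MVD, STARD4 and INSIG2 were each lost when some single library was left out. Among mevalonate enzymes the difference was 0.87 for HMGCS1, 0.68 for IDI1, 0.58 for ACAT2, 0.54 for MVK, 0.42 for FDPS, 0.38 for MVD and 0.27 for PMVK. In the sterol branch it was 0.81 for DHCR7, 0.67 for CYP51A1, 0.65 for SQLE, 0.53 for EBP, 0.34 for LSS, 0.27 for FDFT1, -0.38 for HSD17B7 and -0.58 for TM7SF2. Among genes of sterol sensing and transport it was 1.1 for INSIG1, 0.51 for SREBF1, -0.29 for STARD4 and -0.38 for INSIG2. Among fatty acid enzymes it was 0.66 for SCD, 0.49 for FADS2, 0.43 for ELOVL6, 0.38 for FASN, 0.33 for ACACA, 0.33 for FADS1 and 0.2 for ACLY.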

How the results depend on the processing

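Over all alternatives, 3102 values of the 33 genes were recomputed, of which 2950 kept their direction and their side of the threshold, 98 lost a call, 21 gained one, 33 uncalled values moved and 0 called values changed sign. Without each library in turn, the genes called higher and lower numbered 3 to 7 and 15 to 16 in the KO response, 6 to 8 and 22 in the WT response, 3 to 6 and 19 to 20 in KO over WT with Nutlin-3a, 3 to 5 and 27 to 28 in KO over WT with DMSO, and 19 to 22 and 2 to 4 for the difference of the responses. The count of 3 higher came without replicate 2 of KO DMSO in the KO response, without replicate 2 of KO Nutlin-3a under Nutlin-3a, and without replicate 2 of WT DMSO or replicate 2 of KO DMSO under DMSO. The count of 2 differences below 0 came without replicate 1 of WT DMSO, replicate 1 of KO DMSO or replicate 1 of KO Nutlin-3a. Without the 3 libraries with stray reads, 3 genes were higher in KO cells than in WT cells given DMSO. With limma on log2(RPKM + 0.1) over genes of any level, with no filter, 2 differences were below 0. The cause was not tested. With a replicate block the counts were 5 higher and 16 lower in the KO response, 7 and 22 in the WT response, 6 and 20 in KO over WT with Nutlin-3a, 5 and 28 with DMSO, and 22 and 4 for the difference. Same-numbered libraries correlated from -0.0226 to 0.232 in their deviations from group means, so the numbers were not taken as pairs. The fit of 4 libraries cannot give the difference of the responses. Depth limits ABCG1 and ABCA1, the genes with the fewest reads per length.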

Other observations

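Of 26 tested genes of other fatty acid and lipid synthesis, 7 fell and 9 rose with Nutlin-3a in KO cells, and 11 fell and 8 rose in WT cells (edgeR's quasi-likelihood test, adjusted p under 0.05). Of all tested genes, 20.6% fell and 18.1% rose in KO cells, and 29.2% fell and 29.4% rose in WT cells, so the count that rose in WT cells lies near that share. FADS3, a desaturase relative next to FADS2, rose in KO cells (1.24, SE 0.06, adjusted p = 2.15e-12) and in WT cells (2.32, SE 0.05, adjusted p = 7.15e-17), opposite to FADS1 and FADS2, and the difference of its responses was called (-1.08, SE 0.08, adjusted p = 1.61e-08). ELOVL2, which lengthens polyunsaturated chains, rose in KO cells (1.04, SE 0.12, adjusted p = 1.87e-06) and in WT cells (5.05, SE 0.21, adjusted p = 2.58e-13), and it was higher in KO cells than in WT cells given DMSO (3.93, SE 0.23, adjusted p = 5.38e-11). The last 2 values rest on a WT DMSO mean near 0, at 0.374 CPM, against 5.725 CPM in KO DMSO cells. Under Nutlin-3a the ELOVL2 means were 11.75 CPM in KO and 12.54 CPM in WT cells. MLXIPL, a glucose-responsive factor of lipid genes, was lower in KO cells than in WT cells given Nutlin-3a (-4.20, SE 0.17, adjusted p = 2.01e-13) and DMSO (-4.27, SE 0.34, adjusted p = 3.63e-09). Its mean under Nutlin-3a was low in KO cells, at 0.846 CPM, against 15.58 CPM in WT cells.

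Of 22 fatty acid oxidation genes, 3 fell and 7 rose with Nutlin-3a in KO cells, and 5 fell and 7 rose in WT cells, with the WT counts near the 29.2% and 29.4% of all tested genes. HADH, a dehydrogenase of mitochondrial beta-oxidation, fell in KO cells (-0.35, SE 0.06, adjusted p = 0.00013) and in WT cells (-0.95, SE 0.07, adjusted p = 3.50e-10). Among sterol uptake and trafficking genes, GRAMD1B, a carrier of sterol from the plasma membrane, was higher in KO cells than in WT cells given Nutlin-3a (2.02, SE 0.10, adjusted p = 2e-12) and DMSO (2.42, SE 0.10, adjusted p = 1.74e-13), and so was VLDLR, a lipoprotein receptor (1.79, SE 0.16, adjusted p = 9.89e-09 with Nutlin-3a).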
